A study of Homo sapiens with 6 samples.

Results

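HOX genes encode homeodomain transcription factors that give cells their position along the head-to-tail axis of the embryo, and many adult tissues and tumours go on expressing some of them. In humans they lie in 4 clusters, HOXA to HOXD, in which genes at the same place in different clusters are paralogues and carry the same number, from 1 at the 3′ end to 13 at the 5′ end. Low-numbered genes are switched on early and anteriorly in the embryo, and high-numbered genes late and posteriorly. HOX proteins bind DNA together with PBX and MEIS homeodomain cofactors, Polycomb complexes keep the clusters silent, trithorax complexes keep them active, and retinoic acid induces them from the 3′ end. In the reproductive tract, HOX genes pattern the Müllerian duct, whose derivatives ovarian carcinomas can resemble.

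The members were all probe sets annotated to exactly 1 gene whose symbol is HOXA, HOXB, HOXC or HOXD followed by a number. A probe set is the group of short oligonucleotides by which this array type reads 1 transcript region. The rule took 44 of 54613 non-control probe sets, which read 28 of the 39 HOX protein genes of the RefSeq table. All 10 HOXB genes (19 probe sets) and all 9 HOXC genes (9 probe sets) were covered, as were 8 of 9 HOXD genes (15 probe sets) and 1 of 11 HOXA genes (1 probe set, HOXA2). HOXD3 and the other HOXA genes were not analysed here, so HOXA as a cluster is not described.

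Expression was read on 6 Affymetrix HG-U133 Plus arrays of SKOV3.ip1, a human ovarian carcinoma line derived from SKOV3. Both groups were stable transfectants carrying a vector for PEA-15, a small phosphoprotein that binds ERK and FADD. The S116A line (3 arrays) carried a form that cannot be phosphorylated at a serine replaced by alanine, and the S116D line (3 arrays) a phosphomimetic form with aspartic acid. The labels differ on whether 1 or 2 serines were replaced in the S116D form, and they do not give the promoter of the vector, whether a line is 1 clone, or whether arrays came from separate cultures. The spread behind every p-value is thus that among arrays of a line and may be technical. Parental and empty-vector cells were not analysed here. Differences are given as log2 signal in S116D minus that in S116A.

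All arrays had nearly the same scale, with medians between 7.86 and 7.89, and correlated at r of 0.995 to 0.998 within a line and 0.987 to 0.990 between lines, across probe sets. The second principal component (20.3% of the variance) divided the arrays across the lines. S116A 1 and 2 with S116D 1 formed a first array set, and S116D 2 and 3 with S116A 3 a second. No label matches these sets in full. They follow the replicate number for arrays 1 and 3 of each line, while the arrays numbered 2 were divided between them. The log2 ratio of 3′ to 5′ control probe sets, which grows as RNA degrades, was 0.726 to 0.793 in the first set and 0.653 to 0.708 in the second for GAPDH, but 2.33 to 2.44 and 2.27 to 2.47 for ACTB, which did not divide the sets. Of 11 ovarian carcinoma and epithelial markers, PAX8 (mean log2 signal 12.80) and KRT8 (13.29) were bright and MUC16 (6.66) was dim. EPCAM, KRT7, KRT8, KRT18 and KRT19 were lower and FOLR1 higher in S116D (6 of 11, or 54.5%, past the threshold described below, against 12.2% of all genes), and the summed linear signal of the list was 64752 to 80400 in S116A and 44355 to 54150 in S116D. Of markers of other cells, none of 4 leukocyte and none of 6 fibroblast genes passed the threshold. Of 4 endothelial genes KDR was lower (-0.43). Their summed linear signals were 1109 to 1195 against 1125 to 1233 for leukocytes, 2573 to 2766 against 2579 to 2657 for fibroblasts and 1096 to 1189 against 1037 to 1164 for endothelium, S116A first. The table holds no detection calls, so no marker could be called absent. The part of these differences in the HOX results was not tested.

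For 2 HOX genes at the opposite ends of their cluster and for an antisense transcript of the HOXB cluster, the results below differed between the lines and RefSeq's promoter table (GRCh38.p14) holds a start site. Their 250 bases before the start site are shown so that these 3 windows can be compared. Capitals mark matches to 4 motifs, each searched on both strands, with overlapping matches kept. CACGTG is the E-box. CCAAT is the box of that name, bound by the NF-Y factor. TATAAA is the TATA box of core promoters. TAAT is the core bound by many homeodomains.
HOXD1, chr2:176188418-176188667, + strand: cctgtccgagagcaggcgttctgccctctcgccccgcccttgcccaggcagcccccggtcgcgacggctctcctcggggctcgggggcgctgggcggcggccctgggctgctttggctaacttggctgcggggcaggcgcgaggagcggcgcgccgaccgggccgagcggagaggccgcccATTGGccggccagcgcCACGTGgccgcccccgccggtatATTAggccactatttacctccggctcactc
HOXD13, chr2:176092471-176092720, + strand: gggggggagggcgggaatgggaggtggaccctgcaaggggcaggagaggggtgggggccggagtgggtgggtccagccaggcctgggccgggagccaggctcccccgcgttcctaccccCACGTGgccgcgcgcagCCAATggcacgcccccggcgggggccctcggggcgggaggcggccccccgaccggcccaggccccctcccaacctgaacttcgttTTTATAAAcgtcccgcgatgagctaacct
HOXB-AS3, chr17:48595708-48595957, + strand: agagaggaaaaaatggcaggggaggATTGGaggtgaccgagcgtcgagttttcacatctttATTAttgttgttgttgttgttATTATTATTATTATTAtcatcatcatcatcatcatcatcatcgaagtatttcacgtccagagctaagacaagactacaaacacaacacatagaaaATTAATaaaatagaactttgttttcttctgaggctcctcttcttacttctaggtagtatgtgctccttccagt
The HOXD1 and HOXD13 windows held 74.8% and 74.0% G and C, above the upper quartile of 68.0% over 35116 promoter windows of the same length, and each held 1 CACGTG, which 6.34% of those windows hold, and 1 CCAAT, which 32.0% hold. HOXD13 alone of the 3 held TATAAA, in 2 overlapping matches on opposite strands (10.7% of windows hold one). The HOXB-AS3 window held 36.0% G and C, below the lower quartile of 46.4%, and also 1 CCAAT. It held 8 matches to TAAT, most of them overlapping within a repeat of ATT, against 1 for HOXD1 and 0 for HOXD13. At least 1 match is held by 47.4% of windows, a share that gives no scale for a count of 8. A match describes these letters and shows no bound factor. Of the 28 HOX genes 11 have an entry in the promoter table.

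Among the HOX genes analysed, which leave out nearly all of HOXA, bright signals came mostly from the HOXB cluster. A probe set was counted as bright above 9.35, the upper quartile of all probe set means, and as dim below the median of 7.89. By the brightest probe set of each gene, 8 of 10 HOXB genes were bright, as were 3 of 8 HOXD genes and none of 9 HOXC genes, against 41.1% of all 19775 genes. Counting probe sets, 11 of 19 of HOXB, 3 of 15 of HOXD and 0 of 9 of HOXC were above the upper quartile, and 5 of 15 of HOXD lay below the lower quartile of 6.65. Probe sets differ in how strongly they respond, so these counts place each signal within its arrays and do not rank transcripts.

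**Figure D1:**
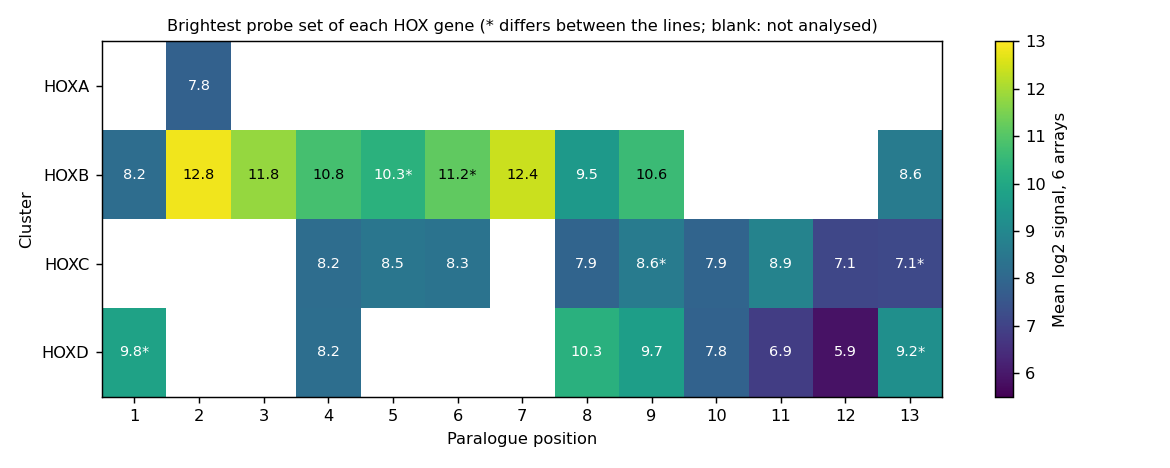
Mean log2 signal over 6 arrays of the brightest probe set of each HOX gene, by cluster (rows) and paralogue position (columns), with an asterisk where the gene passed the limma threshold of 0.05. The HOXB row is above 9.35 at positions 2 to 9, the HOXC row is nowhere above it, and the 6 asterisks lie in HOXB, HOXC and HOXD.

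By paralogue position, bright genes among those analysed lay at 1 to 9. Of HOXA only HOXA2 was analysed, so the other positions show HOXB, HOXC and HOXD alone. Of 5 genes at positions 1 to 3, 3 were bright (HOXB2, HOXB3 and HOXD1), of 11 at positions 4 to 8, 6 were (HOXB4 to HOXB8 and HOXD8), and of 12 at positions 9 to 13, 2 were (HOXB9 and HOXD9). The brightest members were HOXB2, a hindbrain patterning gene, at 12.83, and HOXB7, an activator of FGF2 in melanoma cells, at 12.39. At positions 10 to 12 no gene was above 8.86 (HOXC11), and HOXD12, at 5.87, was the only gene whose brightest probe set lay below the lower quartile. At position 13, HOXD13, the digit-patterning gene, read 9.23, HOXB13, known from prostate and hindgut, 8.63, and HOXC13, a hair and nail gene, 7.15. Several probe sets read 13 of the genes, and for 10 of these they lay on both sides of the median, as for HOXB6 at 11.17 and 6.69, so a dim probe set alone did not make a dim gene.

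**Figure D2:**
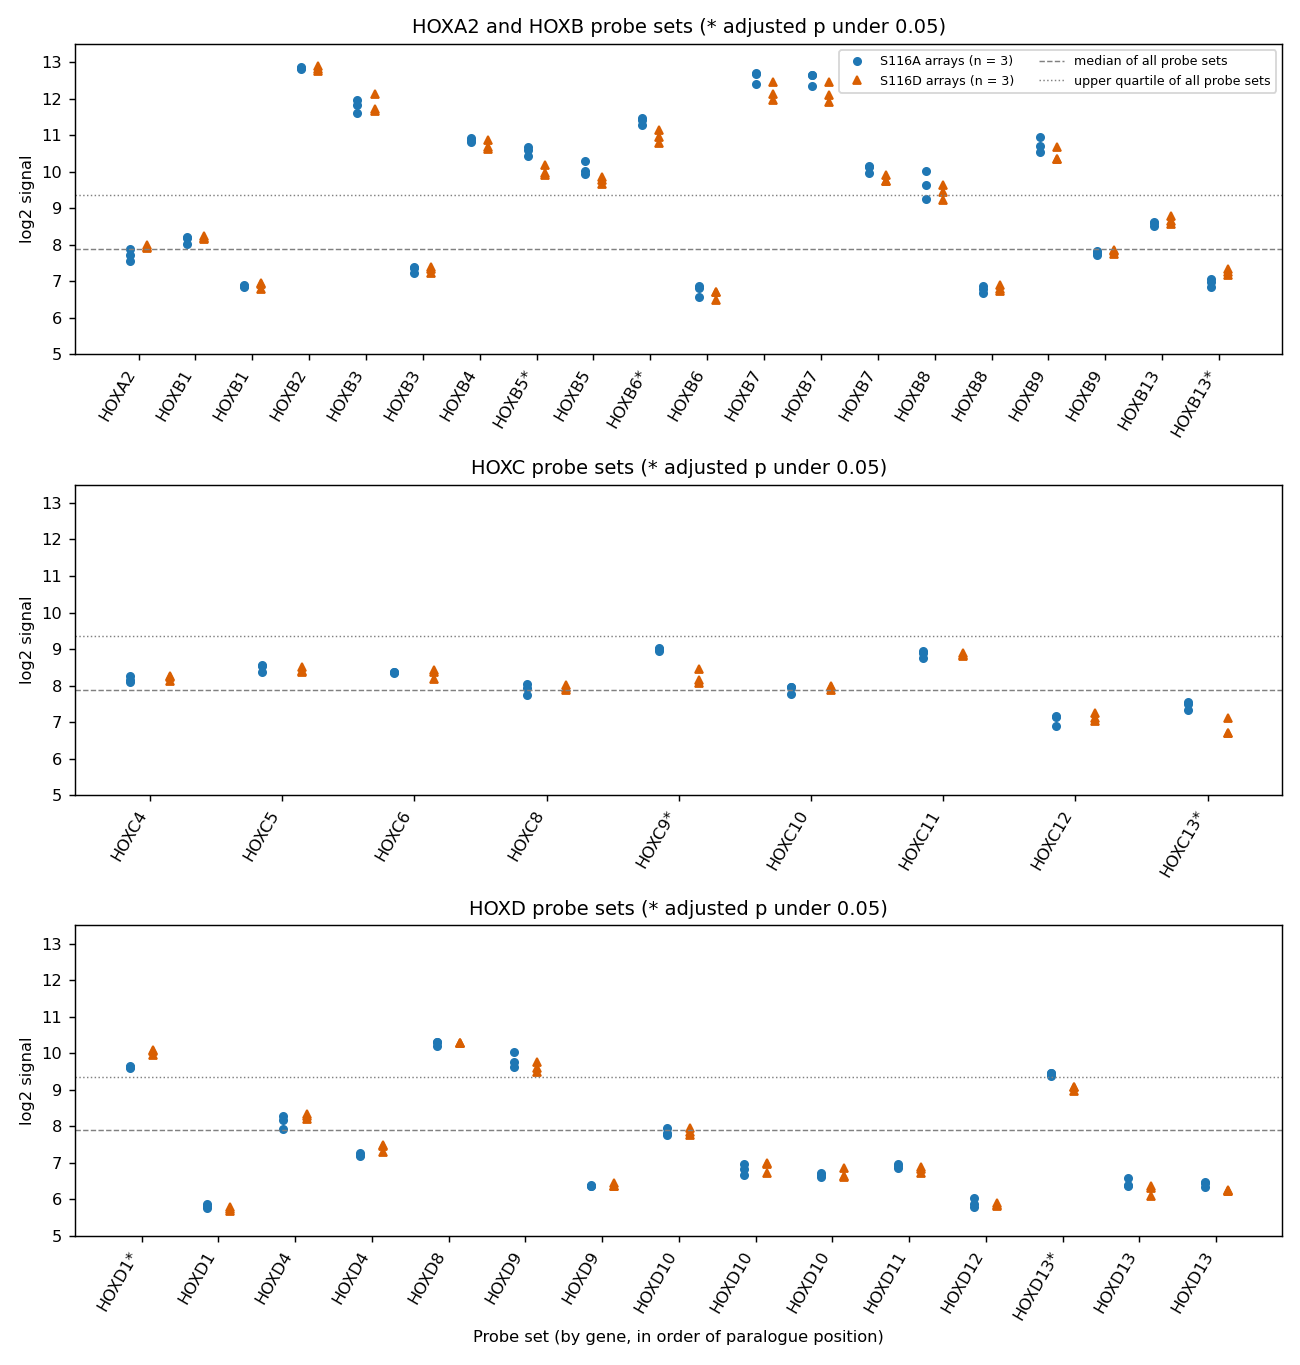
log2 signal of each HOX probe set on each of 6 arrays, by cluster and paralogue position, with circles for S116A and triangles for S116D. Dashed and dotted lines are the median (7.89) and upper quartile (9.35) of all probe sets, and asterisks mark the 7 probe sets with a limma adjusted p under 0.05.

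Between the lines, 7 of 44 HOX probe sets passed the threshold (limma with Benjamini-Hochberg adjustment over all 54613 probe sets, adjusted p under 0.05), or 15.9% against 8.55% of all probe sets. Of these, 5 were lower in S116D (HOXB5, HOXB6, HOXC9, HOXC13 and HOXD13), where 4.19% of all probe sets were lower, and 2 were higher (HOXB13 and HOXD1), where 4.36% were. Among HOX probe sets above the median signal, 5 of 25 passed, against 13.6% of all probe sets there. Lines did not overlap for 12 of the 44, or 27.3% against 24.0% of all. The median difference of the 44 was -0.02, against 0.003 for all probe sets, and 24 of the 44 were negative. On 1 probe set per gene, 6 of 28 genes passed (21.4% against 12.2% of all genes), 5 lower (5.39% of all genes were lower) and HOXD1 higher (6.79% were higher). HOXB13 passed on its dimmer probe set only. With 1 array left out, 2 (without S116D 2), 3 (without S116A 1, S116A 2 or S116D 3), 8 (without S116A 3) or 9 (without S116D 1) HOX probe sets passed. Of all 54613 probe sets, 2608, 2772 to 2986, 4555 and 4674 passed in these fits, in the same order. All 7 differences were under 2-fold, from 1.23-fold to 1.71-fold.

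**Figure D3:**
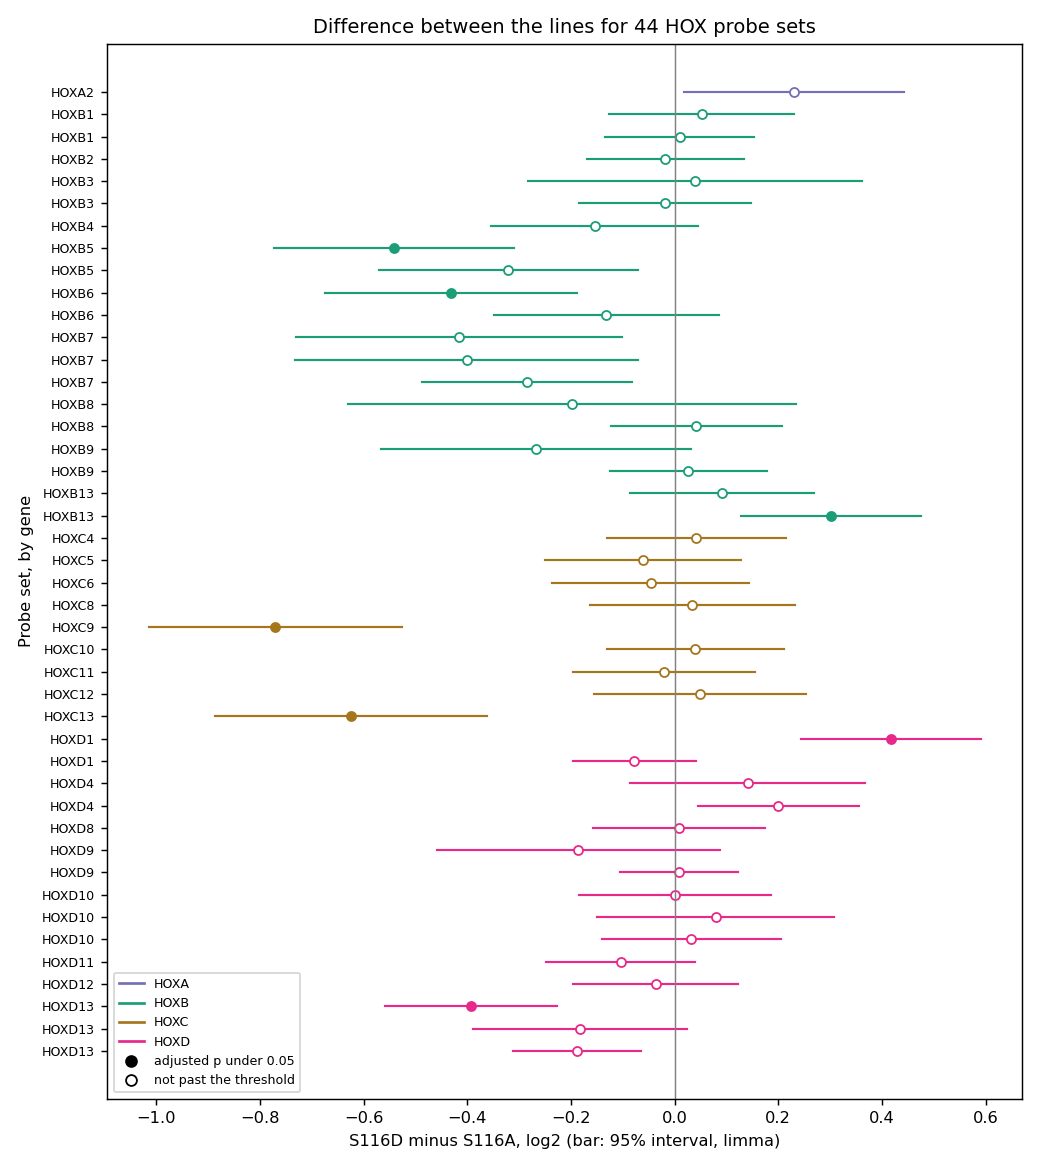
S116D minus S116A difference (log2) of 44 HOX probe sets with limma's 95% interval, in order of cluster and paralogue position, filled where the adjusted p was under 0.05. The 7 probe sets of HOXB5, HOXB6 and HOXB7 all lie below 0, HOXC9 lies lowest at -0.77, and HOXD1 highest at 0.42.

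HOXC9, which sets thoracic motor neuron identity in the embryo, had the largest difference. It read 8.94, 9.01 and 9.04 on the S116A arrays and 8.06, 8.16 and 8.46 on the S116D arrays. All S116D arrays lay below all S116A arrays, and the S116D values spread more. It fell by 0.77 ± 0.11 (SE, n = 3 each), or 1.71-fold, with a limma adjusted p of 0.0032. Its call was kept without any single array, at limma adjusted p between 0.0021 and 0.020. Ordinary t statistics use only a probe set's own spread. With them, 2 of the 7 HOX probe sets past the threshold still passed, against 1026 of all 54613 probe sets, and HOXC9 was not among the 2. The other 8 HOXC genes included 1 more fall, that of HOXC13, a regulator of hair keratin genes. HOXC13 read 7.33, 7.50 and 7.55 in S116A against 6.70, 7.10 and 6.71 in S116D. Here too the lines were apart, and all 6 values were below the median of all probe sets. It fell 1.54-fold, by 0.62 ± 0.11 (SE; limma adjusted p = 0.012), and no longer passed without S116A 2 (0.054) or S116D 3 (0.052). The only HOXC13 probe set is of a type whose probes can match several transcripts.

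The HOXC genes that lie beside HOXC9 on the RefSeq map did not pass. HOXC8, a brachial and thoracic gene, read 7.94, 7.75 and 8.03 in S116A and 7.88, 8.02 and 7.93 in S116D. HOXC10, a lumbar gene, read 7.96, 7.96 and 7.78 against 7.99, 7.89 and 7.95. In both, the lines overlapped, and the differences were 0.03 (95% interval -0.16 to 0.23) and 0.04 (-0.13 to 0.21), so falls as large as that of HOXC9 lie outside these intervals. HOXC11, a posterior gene and the brightest of the cluster, read 8.89, 8.77 and 8.96 against 8.85, 8.82 and 8.89. HOXC4 read 8.09, 8.14 and 8.25 against 8.27, 8.22 and 8.12. HOXC5 read 8.55, 8.36 and 8.55 against 8.51, 8.40 and 8.36. The lines overlapped for these 3, as for HOXC6, which read 8.38, 8.37 and 8.36 against 8.17, 8.37 and 8.43, and for HOXC12, which lay below the median at 7.10 and differed by 0.05. Differences of the 7 HOXC genes that did not pass ran from -0.06 to 0.05.

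In the middle of the HOXB cluster, HOXB5 and HOXB6 were each lower in S116D on 1 of 2 probe sets, and HOXB7 did not pass. The 7 probe sets of these 3 genes, a run singled out after its values were seen, differed by -0.13 to -0.54. The unadjusted limma p was under 0.05 for 6 of the 7, as for 19.7% of all probe sets, and 2 passed the adjusted threshold. HOXB5, which acts in neural crest cells of the gut, read 10.68, 10.59 and 10.44 in S116A and 10.18, 9.98 and 9.92 in S116D. Every S116D array was lower than every S116A array. It fell 1.45-fold, by 0.54 ± 0.10 (SE; limma adjusted p = 0.013). The probe set behind this call is of a type whose probes can match several transcripts. The other HOXB5 probe set, of a type that can hybridise to related sequences, read 10.01, 10.30 and 9.95 against 9.86, 9.65 and 9.79. It also showed no overlap, at -0.32 with a limma adjusted p of 0.13. HOXB6, the next gene in 5′ direction, read 11.47, 11.40 and 11.29 in S116A against 11.14, 10.78 and 10.94 in S116D. Again no array of one line reached the other, and it fell 1.35-fold, by 0.43 ± 0.11 (SE; limma adjusted p = 0.041). The probes behind the HOXB6 call, too, can match several transcripts. The second HOXB6 probe set, without shared probes, lay near the lower quartile, at 6.58, 6.88 and 6.81 against 6.70, 6.48 and 6.70. Its lines overlapped, with a difference of -0.13. Preferred as the unshared one, it did not pass (limma adjusted p over genes 0.51), nor did the median of both probe sets (-0.28, 0.083).

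HOXB7 differed by as much as HOXB6 but did not pass. Its brightest probe set read 12.71, 12.69 and 12.41 in S116A and 12.47, 11.95 and 12.13 in S116D. S116A 3 was the lowest of its line and S116D 1 the highest of its line, so that the lines overlapped. The difference was -0.42 (95% interval -0.73 to -0.10; limma adjusted p = 0.12). A second probe set, with nearly the same values on every array, differed by -0.40 (0.15), and the third, with lines that did not overlap, by -0.29 (0.096). The arrays high for HOXB7 are those of the first array set. Within that set, with 1 S116D array, the difference was -0.23, and within the other, with 1 S116A array, it was -0.37. With the array sets as a block, a setting chosen after the data were seen, HOXB7 passed on all 3 probe sets, at -0.30, -0.28 and -0.23 (limma adjusted p 0.013, 0.025 and 0.036), and 10 of 44 HOX probe sets passed, against 14.8% of all probe sets. HOXB5 (-0.47) and HOXB6 (-0.36) also passed there, at limma adjusted p of 0.0010 and 0.0072. The array sets were drawn from these same values, so p-values with them as a block may be too small and give no separate support. The calls of HOXB5 and HOXB6 were lost when S116A 1, S116A 2, S116D 2 or S116D 3 was left out, at limma adjusted p up to 0.064 and 0.15.

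On either side of these 3 genes the HOXB probe sets did not pass, apart from the dimmer one of HOXB13. HOXB2 read 12.84, 12.82 and 12.87 in S116A and 12.90, 12.76 and 12.81 in S116D, or -0.02 in S116D (95% interval -0.17 to 0.13). HOXB3, another hindbrain gene, read 11.82, 11.97 and 11.61 against 12.13, 11.71 and 11.67. HOXB4, used to expand blood stem cells, read 10.83, 10.86 and 10.91 against 10.61, 10.86 and 10.67. The lines overlapped for all 3, with S116D 1 high for HOXB3 and S116D 2 within the S116A range for HOXB4. HOXB1, the most 3′ gene, read 8.01, 8.22 and 8.19 against 8.17, 8.24 and 8.18. The brightest probe sets of HOXB1 to HOXB4 thus differed by -0.15 to 0.05. HOXB8 read 10.03, 9.64 and 9.24 against 9.23, 9.45 and 9.63. S116A spanned 9.24 to 10.03, and the difference of -0.20 has a 95% interval from -0.63 to 0.23, which includes falls as large as those of HOXB5 and HOXB6. HOXB9, a thoracic gene, read 10.94, 10.54 and 10.71 against 10.69, 10.35 and 10.36, a difference of -0.27 (95% interval -0.57 to 0.03; limma adjusted p = 0.32). HOXB13 read 8.61, 8.60 and 8.53 against 8.58, 8.78 and 8.66 on its brighter probe set, with overlap and a difference of 0.09. Its dimmer probe set read 6.84, 6.97 and 7.07 against 7.18, 7.26 and 7.33. All S116D arrays were above all S116A arrays there, and it rose by 0.30 ± 0.08 (SE; limma adjusted p = 0.046), a call lost without S116A 1, S116A 2, S116D 2 or S116D 3 (up to 0.16).

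An antisense transcript of the same stretch moved the other way. HOXB-AS3, a long noncoding RNA, overlaps HOXB5 and HOXB6 on the RefSeq map, where HOXB7 is the next HOX gene on one side. On its brightest probe set it read 8.76, 9.15 and 9.46 in S116A and 9.96, 10.17 and 10.33 in S116D. All S116D arrays lay above all S116A arrays, and it rose by 1.03 ± 0.17 (SE; limma adjusted p = 0.0077). Of its 5 probe sets 3 passed, at 1.03, 0.90 and 0.51, and the others differed by 0.31 and 0.25 (limma adjusted p 0.13 and 0.47). Within S116A the array lowest for HOXB5, HOXB6 and HOXB7, S116A 3, was the highest for HOXB-AS3, and within S116D the array highest for these genes, S116D 1, was the lowest for it. These are the arrays that lie in the other array set from the rest of their line over all probe sets, and the part of that division in this pattern was not tested. Which strand each probe set reads was not checked here, so signals of overlapping genes could not be assigned by strand.

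**Figure D4:**
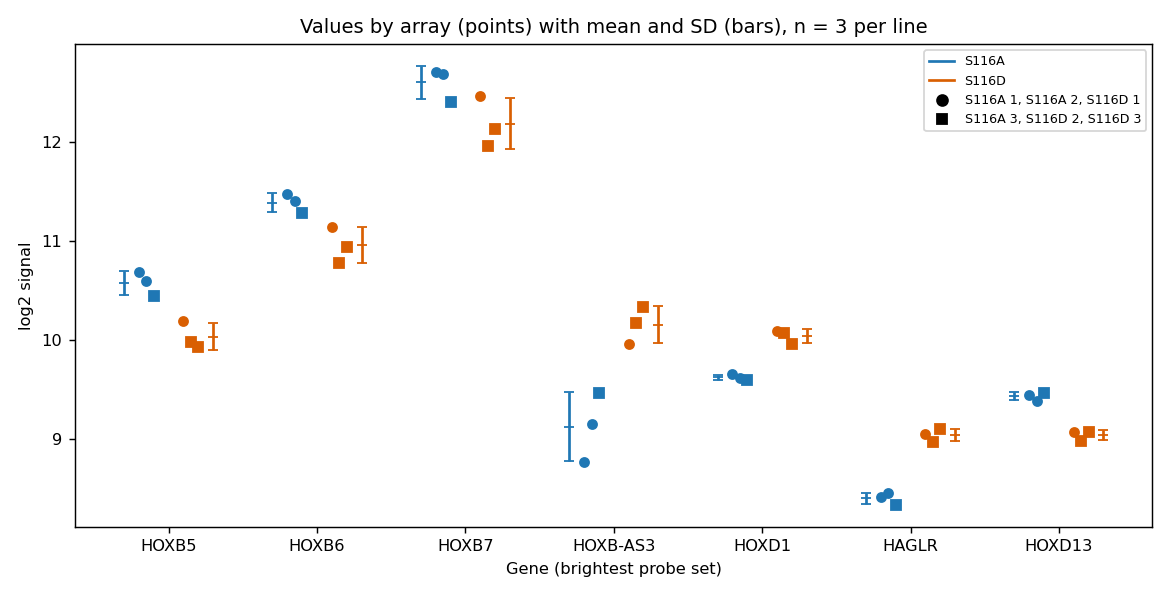
log2 signal by array for HOXB5, HOXB6, HOXB7, the antisense transcript HOXB-AS3, HOXD1, its antisense neighbour HAGLR, and HOXD13, each on its brightest probe set, with circles and squares for the array sets and bars for mean and SD (n = 3 per line). HOXB5 and HOXB6 are lower and HOXB-AS3, HOXD1 and HAGLR higher on every S116D array, while HOXB7 overlaps between the lines.

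At the ends of the HOXD cluster the differences ran in opposite directions. HOXD1, at the 3′ end, read 9.65, 9.61 and 9.60 in S116A and 10.09, 10.07 and 9.95 in S116D. All S116D arrays were higher, and it rose 1.34-fold, by 0.42 ± 0.08 (SE; limma adjusted p = 0.012), a call lost without S116D 2 (0.061). Its other probe set was dim, at 5.76, 5.82 and 5.87 against 5.78, 5.69 and 5.73, with overlap. The rise thus rests on 1 probe set, of a type whose probes can match several transcripts. Where probe sets without shared probes were preferred, HOXD1 differed by -0.08 (limma adjusted p over genes 0.46), and with the median of both it differed by 0.17 (0.088). HAGLR, an antisense RNA that overlaps HOXD1 on the RefSeq map, rose too. HAGLR read 8.41, 8.45 and 8.33 against 9.05, 8.97 and 9.09, without overlap, a rise of 0.64 ± 0.07 (SE; limma adjusted p = 0.0013). It passed on 2 of its 3 probe sets (0.64 and 0.39), the third being dim. Of 4 HAGLR start windows in RefSeq, 2 lie on the opposite strand and overlap the HOXD1 window, by up to 195 of 300 bases, so the HOXD1 window printed above is in part also a HAGLR start window.

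HOXD13, at the 5′ end, read 9.45, 9.38 and 9.46 in S116A and 9.07, 8.98 and 9.07 in S116D. The arrays of each line lay close together and apart from the other line. It fell 1.31-fold, by 0.39 ± 0.07 (SE; limma adjusted p = 0.012), a call lost without S116A 1 (0.054) or S116D 2 (0.066). Its 2 dim probe sets, at means of 6.35 and 6.33, differed by -0.18 (limma adjusted p = 0.32) and -0.19 (0.073), and the median of the 3 probe sets did not pass (-0.17, limma adjusted p over genes 0.16). The HOXD genes between these ends did not pass. HOXD8, a trunk gene, read 10.30, 10.21 and 10.30 against 10.29, 10.27 and 10.27, or 0.01 higher in S116D (95% interval -0.16 to 0.18). HOXD9 read 10.03, 9.75 and 9.63 against 9.76, 9.49 and 9.61 and differed by -0.19 (limma adjusted p = 0.49). HOXD4, a hindbrain gene, read 7.93, 8.18 and 8.29 against 8.21, 8.27 and 8.35, with overlap. Its second probe set, below the median, was higher on every S116D array, by 0.20 (limma adjusted p = 0.13). HOXD10, HOXD11 and HOXD12 were dim on all their probe sets, from 5.87 to 7.85 in the mean, and differed by -0.10 to 0.08. HOXA2, at 7.55, 7.90 and 7.73 against 7.91, 8.01 and 7.94, was likewise below the median in its mean and did not pass, at 0.23 without overlap (limma adjusted p = 0.21).

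Among the genes analysed, by the brightest probe set of each, position 13 was the only one at which more than 1 paralogue passed. Positions 3 and 7 had 1 gene each here. At position 9, HOXB9, HOXC9 and HOXD9 differed by -0.27, -0.77 and -0.19, and HOXC9 alone passed. At position 13, HOXC13 and HOXD13 fell by 0.62 and 0.39, whereas the brightest probe set of HOXB13 differed by 0.09 and its dimmer one rose by 0.30. At position 5, HOXB5 fell and HOXC5 differed by -0.06, and at position 6 HOXB6 fell and HOXC6 differed by -0.05. At position 1, HOXD1 rose and HOXB1 differed by 0.05. Whether paralogues differed from each other was not tested.

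Among other transcripts of the HOX clusters, 13 of 22 listed were measured, and on 1 probe set per gene 2 rose (HOXB-AS3 and HAGLR) and none fell, so that 2 of 13 passed, against 12.2% of all genes. HOTTIP, at the 5′ end of HOXA, was bright, at means of 10.67 in S116A and 10.78 in S116D, and differed by 0.11, HOXD-AS2 by 0.20, and HOTAIR was dim at 5.14. HOXA-AS2 passed on 1 of its 3 probe sets (0.51, limma adjusted p = 0.0025), which read 5.81, 5.77 and 5.85 against 6.23, 6.29 and 6.46, below the lower quartile. Genes flanking the clusters, 5 on each side, did not pass for HOXB, HOXC or HOXD (0 of 10 each). For HOXA, HIBADH (0.46) and TAX1BP1 (0.34), neighbours beyond its 5′ end, were higher, and the other 8 did not pass (20% against 12.2% of all genes). The median differences of the 10 flanking genes were 0.02 for HOXB, 0.01 for HOXC, 0.06 for HOXD and 0.01 for HOXA.

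Among cofactors of HOX proteins, 2 of 8 measured PBX, MEIS and PKNOX genes passed (25% against 12.2% of all genes). MEIS2 rose, PKNOX1 fell and 6 did not pass, with a median difference of 0.07 against 0.006 for all genes. MEIS2 read 10.07, 10.06 and 9.92 in S116A and 11.21, 10.90 and 11.13 in S116D, a rise of 1.06 ± 0.10 (SE; limma adjusted p over genes 4.4e-04). PKNOX1, a MEIS relative, read 10.86, 10.89 and 10.83 against 10.47, 10.38 and 10.30 and fell by 0.47 ± 0.08 (SE; 0.0064). Neither gene's lines overlapped. MEIS1 (0.19) and PBX3 (-0.10), the brightest of the others, overlapped between the lines.

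Of 23 measured Polycomb genes 3 passed, a share close to the 12.2% of all genes. PHF19, which recruits the methyltransferase complex, rose (0.54), and JARID2 (-0.37), another subunit of that complex, and PCGF6 (-0.38), of a variant complex, fell, at limma adjusted p over genes of 0.024 to 0.025. The list's median difference was 0.02, and RBBP7 (0.02) and RBBP4 (0.07), its brightest members, did not pass. Of 20 trithorax and MLL genes DOT1L, the H3K79 methyltransferase, fell (-0.49, limma adjusted p over genes 0.046), and 19 did not pass (5% past the threshold against 12.2% of all genes), ASH2L (-0.03) and DPY30 (-0.16) among them, with a median of -0.02.

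Of 18 genes for retinoic acid and CDX inputs, 3 fell, none rose and 15 did not pass, with a median difference of -0.08. The share past the threshold was 16.7%, against 12.2% of all genes in either direction and 5.39% of all genes lower. ALDH1A3, which makes retinoic acid, read 12.63, 12.27 and 12.20 in S116A and 9.75, 10.25 and 10.35 in S116D and fell by 2.25 ± 0.17 (SE; limma adjusted p over genes 1.4e-04). DHRS3, which reduces retinal to retinol, read 11.24, 10.96 and 10.41 against 9.58, 9.04 and 9.35 and fell by 1.55 ± 0.21 (SE; 0.0025). RARB, a retinoic acid receptor and itself a retinoid-induced gene, fell by 0.36 ± 0.07 (SE; 0.015). The lines did not overlap for these 3. RXRA (-0.25) and RXRB (-0.25) did not pass. With array sets as a block 22.3% of all genes passed, and the counts of these lists rose to 4 of 8 cofactors (MEIS1 and PBX2 added), 8 of 23 Polycomb genes, 4 of 20 trithorax and MLL genes, 4 of 18 retinoic acid and CDX genes, and 4 of 13 other cluster transcripts. Flanking genes then passed for HOXB and HOXD (3 of 10 each), HOXA (2 of 10) and HOXC (0 of 10).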

How the data were processed

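The authors' deposited table holds 1 log2 signal per probe set and array (values 4.336 to 15.33), read as log2 from its range. MAS5 and RMA are named in the submitters' processing notes, with no version or role. How background was corrected is not given in the sources used here. Signals of this kind understate differences of dim probe sets, and the number of arrays limits the precision.

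Of 54675 probe sets, 62 controls were left out. Genes came from GEO's platform annotation, with symbols from RefSeq (GRCh38.p14), and all 44 HOX probe sets matched. limma 3.58.1 in R 4.3.3 (lmFit, eBayes with an intensity trend, no covariates, Benjamini-Hochberg, 0.05) compared the lines over 54613 probe sets, and over 19775 genes on the probe set with the highest mean. HOX p-values and those of cluster transcripts refer to probe sets, those of other lists to genes. Folds were computed from log2 differences. For 3 against 3 arrays an exact permutation test gives no p below 0.1. On simulated data with the spread of these probe sets, 41.8% of changes of 0.5 and 85.1% of changes of 1 were recovered, and 3.23% of calls were false. The simulation changed 200 of 54613 probe sets, whereas 4672 passed in the data, so these rates need not hold for this fit.

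The members, lists and rules were chosen with earlier results of these data known. Values per array were to be given for HOX probe sets past the threshold, other probe sets of their genes and other genes above the median. From the lists, members past the threshold and up to 2 bright others were to be named. Values of HOXA2, HOXA-AS2 and other probe sets of HOXB7 and HOXD4 were added after they were seen. Other settings tried were normalization by quantiles or by medians, testing bright probe sets only, leaving out the trend, blocks for the replicate number or (added after the data were seen) the array sets, array weights, ordinary t statistics, other choices of probe set per gene, and leaving out each array.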

Additional observations from a re-analysis of the deposited data

How the results depend on the processing

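The 7 HOX probe sets past the threshold kept it under quantile normalization, median centring, array weights and both blocks, and without a trend all but the dimmer HOXB13 probe set did (0.054). With only probe sets above the median signal, 5 remained, since HOXC13 and that HOXB13 probe set were not tested. Same-numbered arrays did not deviate together in every pair (correlations of deviations 0.45, -0.04 and 0.44), so numbers were not taken as pairs. With the replicate number as a block, 11 HOX probe sets, 7340 of all probe sets and 3892 of all genes passed, including HOXB7 and HOXB9. With array sets, which were drawn from these same values, as a block, 8099 probe sets and 4411 genes passed. Array weights gave 12 HOX probe sets, 6409 of all probe sets, 7 HOX genes and 3681 of all genes. Ordinary t statistics gave 2 HOX probe sets, 1026 probe sets, 2 HOX genes and 948 genes. With probe sets of a gene combined by their median, 3 of 28 HOX genes passed (HOXB5, HOXC9 and HOXC13), against 2218 of all 19775 genes. With unshared probe sets preferred, 4 of 28 HOX genes passed (HOXB5, HOXC9, HOXC13 and HOXD13), against 2251 of all 19775 genes. HOXB5 and HOXC13 have no unshared probe set, so this setting kept their shared ones and did not test them. There HOXD1 turned to -0.078 (limma adjusted p 0.46) and HOXB6 gave -0.13 (0.51). Without each array in turn, 2 to 9 HOX probe sets, 2608 to 4674 probe sets, 4 to 7 HOX genes and 1435 to 2595 genes passed. Counts were lowest without S116D 2 for HOX probe sets (2), and were 3 without S116A 1, S116A 2 or S116D 3. Among the 31 HOX probe sets followed one by one, no difference past the threshold changed sign, so that HOXD1 turned only with the choice of its probe set.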
